A study of Mus musculus with 24 samples.

Results

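The regions described here are the deposited list of hydroxymethylated regions tagged iHR, made by hMeDIP-seq in mouse bone marrow cells that carry IDH1 R132H. All intervals of that list on the 19 autosomes were taken, which gave 7829 iHRs among 34428 regions in the 6 region lists of the series, and no value entered the choice. hMeDIP-seq pulls down DNA fragments with an antibody to 5-hydroxymethylcytosine and sequences them. The list is attached to the library of cells given vitamin C. Its tag is read here as increased hydroxymethylation with vitamin C, although neither the labels nor the list records the direction, the libraries compared or the threshold.

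The libraries compared came from mouse marrow made to grow without end by HOXA9, a homeobox protein that holds myeloid progenitors in division, and all carried a vector for the IDH1 R132H enzyme. They grew in medium with IL-3, IL-6 and SCF. Treated cells received vitamin C to 0.345 mM at 0, 24 and 48 h and were harvested at 72 h, and the matching untreated cells carried the same vectors. The harvest time of untreated cells is not in the labels. One further list, called mutant MeDIP here, is attached to untreated cells with a wild-type IDH1 vector. Each group held 1 library, so conditions could not be tested against each other, and the shares below carry exact 95% Clopper-Pearson intervals that cover counting error only. The values of the untreated hMeDIP library were not analysed here, so the label of the iHR list has no check from its own signal.

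5-Hydroxymethylcytosine is made from 5-methylcytosine by the TET enzymes, dioxygenases that need iron and 2-oxoglutarate. The 2-hydroxyglutarate produced by mutant IDH1 competes with that substrate, while vitamin C keeps the enzymes' iron in its reduced, active form. In blood cells the mark is known from enhancers and from the bodies of transcribed genes, and it can be an intermediate on the way to unmethylated cytosine.

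The cells' RNA held the defining markers of the labelled lineage. All 10 myeloid progenitor markers looked at, among them Mpo, Elane and Cebpa, reached 1 RPKM (reads per kilobase of gene, scaled to library size) in both libraries. Their range was 16.5 to 3062 RPKM untreated and 5.07 to 1487 RPKM with vitamin C. Both upper values are those of Hoxa9, the gene used to immortalize the cells, so they cannot serve as a sign of lineage. Of 8 mast cell and basophil markers, 5 reached 1 RPKM untreated and 7 with vitamin C, and their summed level went from 2030 to 2717 RPKM. That sum came mostly from Cpa3, with up to 2488 RPKM. Of 6 erythroid markers 1 reached 1 RPKM untreated and 2 with vitamin C, with up to 340 and 380 RPKM, and of 4 megakaryocyte markers 2 did in both, with up to 148 and 137 RPKM. One of 5 T cell markers reached 4.21 and 4.28 RPKM, and 0 of 5 B cell and 0 of 5 fibroblast markers reached 1 RPKM. The part of such cells in the results below was not tested. The RNA libraries held 86804487 and 111453443 reads on genes, while the depth of the hMeDIP library is unknown.

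The iHRs were short and scattered. Together they covered 4.54 Mb, which is 0.186% of the span from the first to the last gene, region or peak of each chromosome. Most were single steps of a 500 bp grid: 5411 iHRs (69.1%) were 500 bp long and 1039 (13.3%) were 1000 bp long. Another 486 regions (6.21%) were 501 bp long and lay off the grid, and they differed from the rest in place. Of these off-grid regions 36.4% (32.1 to 40.9) lay in a protein-coding gene and 78.0% (74.0 to 81.6) lay under no listed peak, against 51.1% and 62.3% of the regions on the 500 bp grid. How the off-grid regions were made is not given in the sources used here.

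A few sequences show what kind of DNA was listed at gene starts, where the reference tables hold letters. Of 20085 windows of 300 bases around annotated starts, 87 (0.433%) lay under an iHR, belonging to 81 genes. The 5 runs below are the 250 bases before a start, 5′ to 3′ along the gene, from RefSeq on GRCm38, the assembly also called mm10. Capitals mark CpG, the dinucleotide on which the TET enzymes mostly act. Arsg and Mmp8 were taken by the rule for named genes whose start lies in an iHR. Slpi, Itgam and Retreg1 were chosen after their values were seen, Retreg1 for the most CpGs among expressed genes with all 250 bases in an iHR.
Arsg chr11:109485642-109485891, plus strand: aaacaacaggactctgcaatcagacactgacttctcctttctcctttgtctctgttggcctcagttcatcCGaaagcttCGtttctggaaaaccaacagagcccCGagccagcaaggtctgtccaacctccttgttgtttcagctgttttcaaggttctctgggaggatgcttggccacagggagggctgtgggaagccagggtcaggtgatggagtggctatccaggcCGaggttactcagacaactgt
Mmp8 chr9:7558179-7558428, plus strand: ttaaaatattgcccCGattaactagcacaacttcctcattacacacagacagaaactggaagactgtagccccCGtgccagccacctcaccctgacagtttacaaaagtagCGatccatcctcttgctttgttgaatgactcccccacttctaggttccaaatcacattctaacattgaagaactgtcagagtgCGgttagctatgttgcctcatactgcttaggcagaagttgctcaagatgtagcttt
Slpi chr2:164356508-164356757, minus strand: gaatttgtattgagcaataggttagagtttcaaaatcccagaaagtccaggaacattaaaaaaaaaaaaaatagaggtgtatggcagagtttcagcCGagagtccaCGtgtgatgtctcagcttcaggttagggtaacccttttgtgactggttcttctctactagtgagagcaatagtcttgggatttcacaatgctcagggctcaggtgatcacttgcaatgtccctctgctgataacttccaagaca
Itgam chr7:128062390-128062639, plus strand: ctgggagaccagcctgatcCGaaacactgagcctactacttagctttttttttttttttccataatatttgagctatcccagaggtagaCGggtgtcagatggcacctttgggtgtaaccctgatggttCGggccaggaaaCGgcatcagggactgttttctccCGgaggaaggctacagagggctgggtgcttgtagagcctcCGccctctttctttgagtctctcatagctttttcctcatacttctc
Retreg1 chr15:25843048-25843297, plus strand: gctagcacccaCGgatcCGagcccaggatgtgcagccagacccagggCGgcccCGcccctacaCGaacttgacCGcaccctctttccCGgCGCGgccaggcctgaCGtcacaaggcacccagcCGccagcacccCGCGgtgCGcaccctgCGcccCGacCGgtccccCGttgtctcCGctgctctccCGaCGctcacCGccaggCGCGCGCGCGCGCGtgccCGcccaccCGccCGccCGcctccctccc
The first 4 are poor in CpG, with 4, 4, 2 and 6 in the bases printed, and Retreg1 is rich in it, with 33. All 250 bases lay in the iHR for each gene except Itgam, where 111 did. Arsg encodes a lysosomal sulfatase, and its iHR also overlapped a WGBS deMR, a region of whole-genome bisulfite sequencing whose tag is read here as lost methylation, and an H3K27ac peak of the vitamin C library. Slpi, a secreted inhibitor of neutrophil elastase, had its iHR under H3K4me3 and a WGBS deMR, and its RNA stood at 86.8 and then 151 RPKM. Itgam encodes the CD11b integrin chain of myeloid cells. Its upstream iHR lay under H3K27ac in both libraries and under H3K4me3 with vitamin C, and its level was 21.1 and 27 RPKM. Mmp8, a collagenase of neutrophil granules, stayed below 1 RPKM in both libraries, at 0.856 and 0.625.

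Start windows under an iHR were close to all start windows in CpG and in the motifs counted. Their median was 11 CpGs in 300 bases, against 14 over all windows. The ETS-type motif GGAAGT, read on both strands, was found in 29.9% (20.5 to 40.6) of them and in 25% of all windows. TGTGGT, a RUNX-type motif, was found in 12.6% (6.48 to 21.5) and 14.8% of all. Of the 81 genes, 37 reached 5 RPKM in 1 or both libraries. Among all 19281 protein-coding genes with an RPKM, 7881 reached it in the untreated library alone, a share not far from that.

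iHRs lay in genes more often than the genome does, and few lay near a start. In all, 3962 iHRs, or 50.6% (49.5 to 51.7), overlapped the span of a protein-coding gene, against 40.7% of all 4883648 windows of 500 bp along the same chromosomes, which include assembly gaps. Only 234 of 7567 iHRs, 3.09% (2.71 to 3.51), came within 1 kb of a start, against 1.85% of windows. Chromosome 18 was left out of the shares about starts, since its start sites were not used here. The median distance from the centre of an iHR to the nearest start was 54320 bp, against 89833 bp for windows and 30213 bp for MeDIP deMRs, the regions tagged in the same way by the antibody assay for 5-methylcytosine. Further than 500 kb from any start lay 11.9% of iHRs, 18.3% of windows and 5.16% of MeDIP deMRs.

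Within genes of 10 kb or more, iHRs were spread almost evenly from start to end. From the first to the last of 5 equal parts of the gene the shares were 21.9%, 19.6%, 18.9%, 18.3% and 21.3% of 2945 iHRs. WGBS deMRs leaned to the front, with 26.6% (24.9 to 28.3) in the first part and 18.1% (16.7 to 19.6) in the last. In the first part the intervals of the iHRs (20.4 to 23.4) and of WGBS deMRs do not overlap. Whether a region in a gene is exonic or intronic was not analysed here.

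Outside gene spans the iHRs lay nearer to expressed genes than the genome does. Of 3867 iHRs outside spans, 32.0% (30.5 to 33.5) were within 50 kb of a gene at 1 RPKM or more in either library, against 20.4% of such windows. Within 50 kb of a gene below 1 RPKM the shares were 27.4% (26.0 to 28.8) and 26.6%. For MeDIP iMRs, the MeDIP regions whose tag is read as gained methylation, the corresponding shares were 21.9% and 31.5%. For regions tagged deMR the share near expressed genes was higher than for iHRs, 54.6% for MeDIP and 53.9% for WGBS.

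Across chromosomes the iHRs numbered 3.21 per Mb, from 2.66 on chromosome 16 to 4.06 on chromosome 10 and 4.01 on chromosome 19. Their density followed gene density only loosely (Pearson 0.23, Spearman 0.31 over 19 chromosomes), where that of MeDIP deMRs followed it closely (Pearson 0.78, Spearman 0.81). These correlations describe chromosomes of 1 library each and carry no test.

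iHRs often came with a neighbour. Another iHR lay within 10 kb of 1468 iHRs, or 18.8% (17.9 to 19.6), and within 1 kb of 756, or 9.66%. Part of this comes from 265 pairs of regions that abut, and with abutting regions joined, an alternative added after seeing the data, 12.9% of 7564 regions had a neighbour within 10 kb. The MeDIP deMR, MeDIP iMR and mutant MeDIP lists had 11.3%, 9.09% and 11.5% with a neighbour at that distance, but hold fewer regions. The WGBS iMR list, of nearly the same size with 7813 regions, had 13.7%, which is below the 18.8% of the iHRs as listed and above the 12.9% of the joined ones. Abutting regions of the other lists were not joined. WGBS deMRs had 21.6% of 6251 regions.

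**Figure D1:**
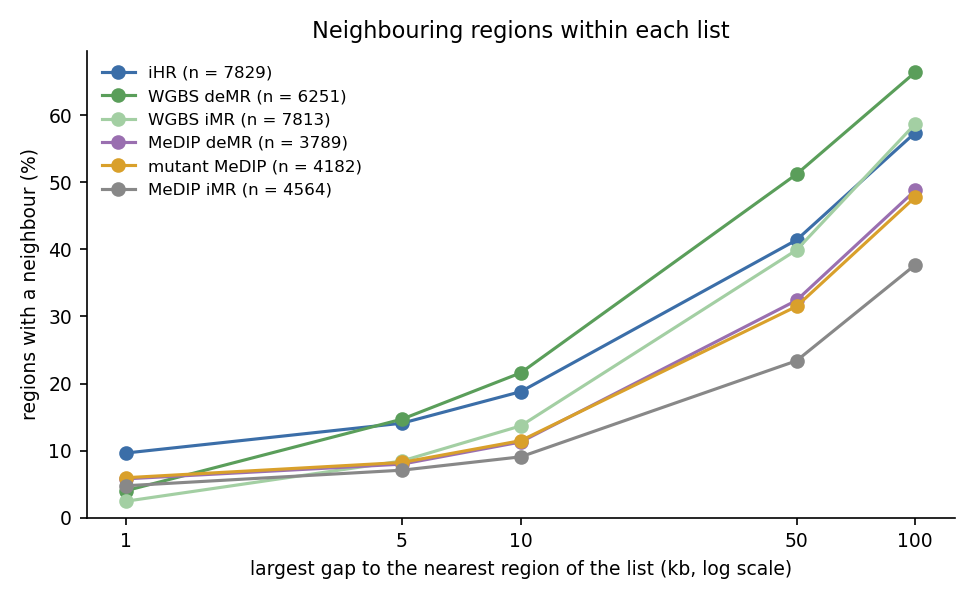
Share of regions with another region of the same list within a given gap (x axis, kb, log scale; y axis, %), for the 6 region lists with their sizes. As listed, with 265 abutting pairs not joined, the iHRs had the highest share at 1 kb, with 9.66%. At 10 kb they lay between the WGBS lists, with 18.8%.

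Runs of iHRs were counted with gaps of up to 10 kb. Abutting regions count as separate iHRs here and in the counts below. There were 632 runs of 2 iHRs, 50 of 3, 12 of 4 and 1 of 6. The run of 6 spanned 11 kb of Fndc3b (chr3:27698501-27709500), a gene for a membrane protein with fibronectin type III repeats. All 6 of its iHRs lay under H3K4me1 peaks of the untreated library and 2 under H3K4me3. Fndc3b also held the most iHRs of any gene, 11, and its level was 35.2 RPKM untreated and 31.1 RPKM with vitamin C.

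Further dense runs held 4 iHRs each. One spanned 7.5 kb of Nfic (chr10:81405501-81413000), a transcription factor of the nuclear factor I family, with all 4 iHRs under H3K4me1 and 3 under H3K27ac. Another lay in Slc39a11, a zinc transporter, with 2 of its 4 iHRs under H3K4me1, 1 under H3K27ac and 1 under a Runx1 peak. Levels of both genes differed little between libraries: Nfic had 39.7 and 33.8 RPKM, and Slc39a11 had 19.2 and 17.4 RPKM.

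Another run of 4 crossed Mpo (chr11:87791501-87805000), which encodes myeloperoxidase, the main enzyme of primary neutrophil granules. Its first iHR lay 2.0 kb before the gene's start, under H3K4me1 of both libraries and H3K27ac of the vitamin C library. The largest, 1500 bp long and centred 9.0 kb after the start, lay under an H3K4me1 peak of the vitamin C library and overlapped a MeDIP deMR. The remaining pair, 9.8 and 11 kb after the start, lay under no listed peak. Mpo had 796 RPKM on 198263 reads untreated and 131 RPKM on 41558 reads with vitamin C, so its iHRs stood beside a lower RNA level. In such bulk samples fewer cells of a type and less RNA per cell cannot be told apart.

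Runx1, which encodes a core transcription factor of blood stem and progenitor cells, held 10 iHRs in 225 kb. They lay 35.3 to 210.9 kb after the gene's start, and all 10 were under a histone peak: 9 under H3K4me1, 6 under H3K27ac and 4 under H3K4me3. PU.1 peaks covered 2 of them, and 1 overlapped a WGBS deMR. No iHR of Runx1 lay under a Runx1 peak. Its RNA was at 52.5 and 66.3 RPKM.

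Counted in windows of 1 Mb, the densest was the one that holds Kit, chr5:75000001-76000000, with 15 iHRs where the median of 2417 windows was 3. Kit encodes the receptor for SCF, the growth factor in the medium. It was singled out after its values were seen, although it is also among the named genes. Of the 15 iHRs, 2 lay inside Kit, 58.8 and 64.8 kb after its start, and 13 lay between genes. The upstream and the downstream iHRs differed in chromatin. Of the 8 upstream, at −456.5 to −64.2 kb from the start, 1 lay under a histone peak, an H3K4me1 peak of the untreated library. All 5 downstream of the gene, at 108.3 to 277.1 kb, lay under H3K4me1 in 1 or both libraries, 2 under H3K27ac in both, and 2 overlapped a WGBS deMR. Kit had 13596 reads (32.1 RPKM) untreated and 2749 reads (5.07 RPKM) with vitamin C. Of its neighbours, Pdgfra and Kdr were at or near 0 and Chic2 at 5.94 and 7.04 RPKM.

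**Figure D2:**
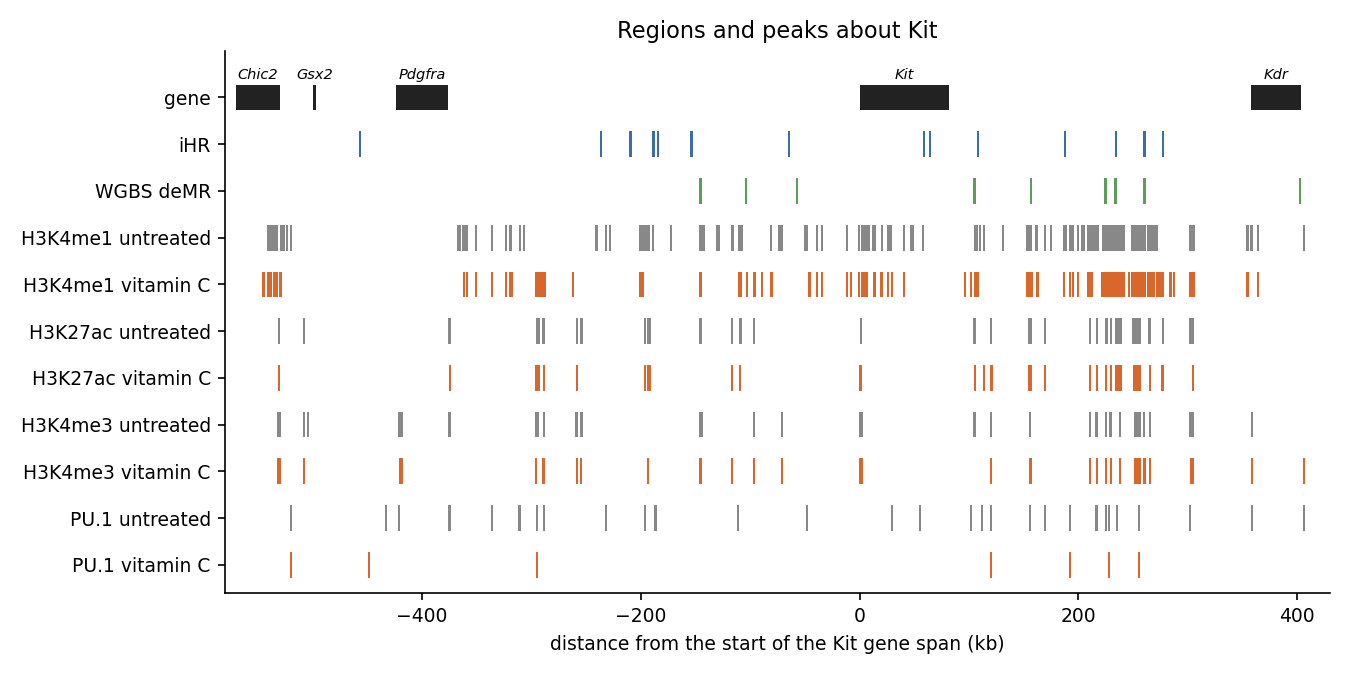
Gene spans, iHRs, WGBS deMRs and peaks of both libraries (rows) by distance from the start of the Kit span (x axis, kb), each drawn at least 2 kb wide. The 8 upstream iHRs mostly lay away from histone peaks, and the 5 beyond the gene's end lay among them.

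The window chr10:118000001-119000000 held 14 iHRs around Ifng, Il22 and Iltifb, cytokine genes of lymphoid cells. All 3 genes had 0 reads in both libraries, and 10 of the 14 iHRs lay under no listed peak. The other 4 lay upstream, at −402.8 to −319.3 kb from the start of Ifng, all under H3K4me1. Il22 and Iltifb are near-identical copies, so the place of reads within them is uncertain. In all, 53 of the 2417 windows held 10 or more iHRs, and 221 (9.14%) held none.

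iHRs lay under marks of enhancers and promoters several times as often as the genome does. H3K4me1 marks enhancers, H3K27ac active enhancers and promoters, and H3K4me3 promoters above all. Untreated H3K4me1 peaks covered 27.6% (26.7 to 28.6) of iHRs and 8.59% of windows, and vitamin C peaks covered 18.4% and 5.34%. For H3K4me3 the shares were 10.9% of iHRs and 3.0% of windows untreated, and 12.2% and 3.06% with vitamin C. For H3K27ac they were 11.9% and 2.75% untreated, and 13.3% (12.6 to 14.1) and 2.72% with vitamin C. The ratio of iHRs to windows was thus largest for H3K27ac of the vitamin C library, at 4.90, against 4.32 for the untreated library. For H3K4me1 the ratios were 3.22 and 3.45, and for H3K4me3 they were 3.64 and 4.00.

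Transcription factor peaks covered fewer iHRs. PU.1, encoded by Spi1, is the master regulator of myeloid genes. Its untreated peaks covered 5.42% of iHRs and 2.00% of windows, and its vitamin C peaks, a list of 22765 peaks against 59129, covered 2.22% and 0.735%. Runx1 peaks covered 0.268% and 0.383% of iHRs and 0.127% and 0.213% of windows. Either Runx1 list covered 33 iHRs in all, 0.422% against 0.236% of windows.

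**Figure D3:**
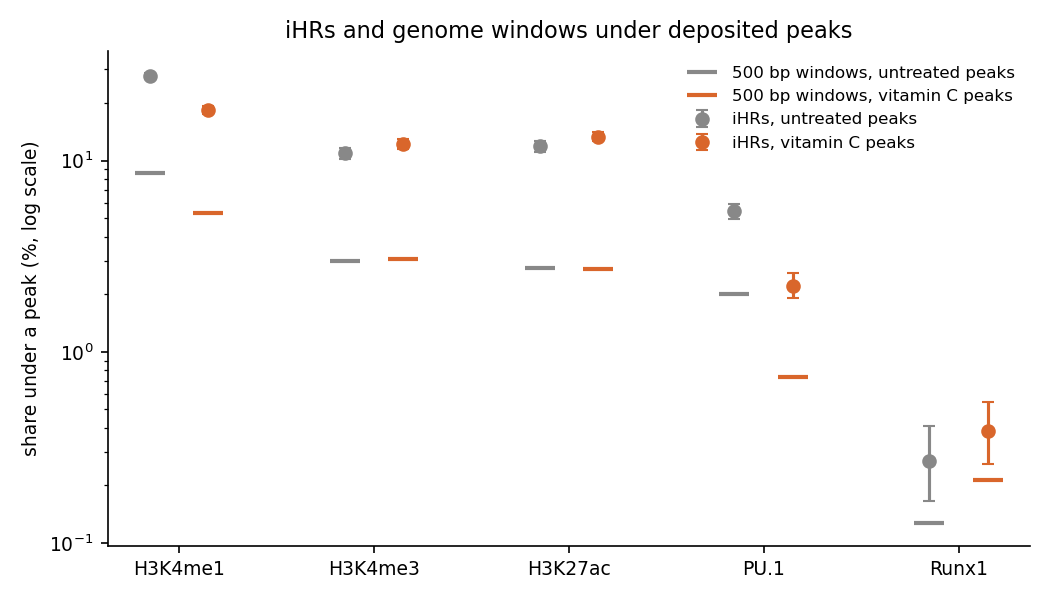
Share under a deposited peak (y axis, %, log scale) for iHRs (points, with exact 95% intervals) and for all 500 bp windows (dashes), by mark and by library of the peak list. For all 10 lists the iHRs lay above the windows, from 27.6% against 8.59% for untreated H3K4me1 to 0.268% against 0.127% for untreated Runx1.

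Each iHR was put in 1 chromatin class. H3K4me3 in either library took 1031 iHRs (13.2%, against 3.34% of windows), H3K27ac without H3K4me3 took 303 (3.87%), H3K4me1 alone 1516 (19.4%), a factor peak alone 80 (1.02%), and 4899 (62.6%, 61.5 to 63.6) had no listed peak. Among windows 87.7% had none. The class of H3K27ac without H3K4me3 stood furthest above the windows, at 5.18 times their share. Most iHRs therefore lay outside every listed peak, although fewer than windows did. Those without a peak were also less often in genes, with 41.0% (39.6 to 42.4) against 68.5% (65.5 to 71.3) in the H3K4me3 class and 67.4% for H3K4me1 alone. Windows of the same classes showed a like contrast, with 37.6%, 66.4% and 64.6% in genes.

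For H3K27ac and H3K4me3 the iHRs were uneven between places with a peak in 1 library alone. Of the iHRs, 176 lay under an H3K27ac peak of the vitamin C library and under none of the untreated library. For 61 the reverse held, while the corresponding shares of windows were about equal, 0.298% and 0.326%. For H3K4me3 the counts were 176 and 74, with 0.335% and 0.277% of windows. For H3K4me1 the imbalance ran the other way, 465 against 1188, in step with the windows at 1.82% and 5.07%. These counts are by iHR, and a peak over such an iHR can overlap a peak of the other library elsewhere. Under H3K27ac peaks of the vitamin C library that overlap no untreated peak lay 107 iHRs. Peak lists with 1 library each also differ through depth and peak calling, whose part in these counts was not tested.

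Counted over peaks, the same held for H3K27ac and H3K4me3. Of 3981 H3K27ac peaks found with vitamin C only, 110 or 2.76% (2.28 to 3.32) overlapped an iHR, against 35 of 4758 or 0.736% (0.513 to 1.02) of those found untreated only. Restricted to peaks of 250 to under 500 bp, an alternative added after seeing the data, the shares were 2.07% (1.57 to 2.67) and 0.870% (0.592 to 1.23). Peaks of that length found in both libraries held an iHR in 1.49% of cases by the untreated list and in 0.902% by the vitamin C list. H3K4me3 showed 1.88% (1.57 to 2.24) of vitamin C-only and 0.787% (0.542 to 1.10) of untreated-only peaks. For H3K4me1 the side depended on peak length, with 2.09% of vitamin C-only and 2.68% of untreated-only peaks of all lengths. At 250 to under 500 bp the H3K4me1 shares were 0.979% (0.693 to 1.34) and 0.582% (0.404 to 0.813). WGBS deMRs had the same side, under 6.53% of the vitamin C-only and 1.03% of the untreated-only H3K27ac peaks. MeDIP deMRs did too, with 1.33% and 0.357%. MeDIP iMRs (0.0251% and 0.105%) and WGBS iMRs (0.327% and 0.483%) did not. Of the mutant MeDIP regions, attached to untreated cells, 8.68% lay under H3K27ac peaks of the vitamin C library and 7.63% under untreated ones. The side is thus not particular to iHRs.

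**Figure D4:**
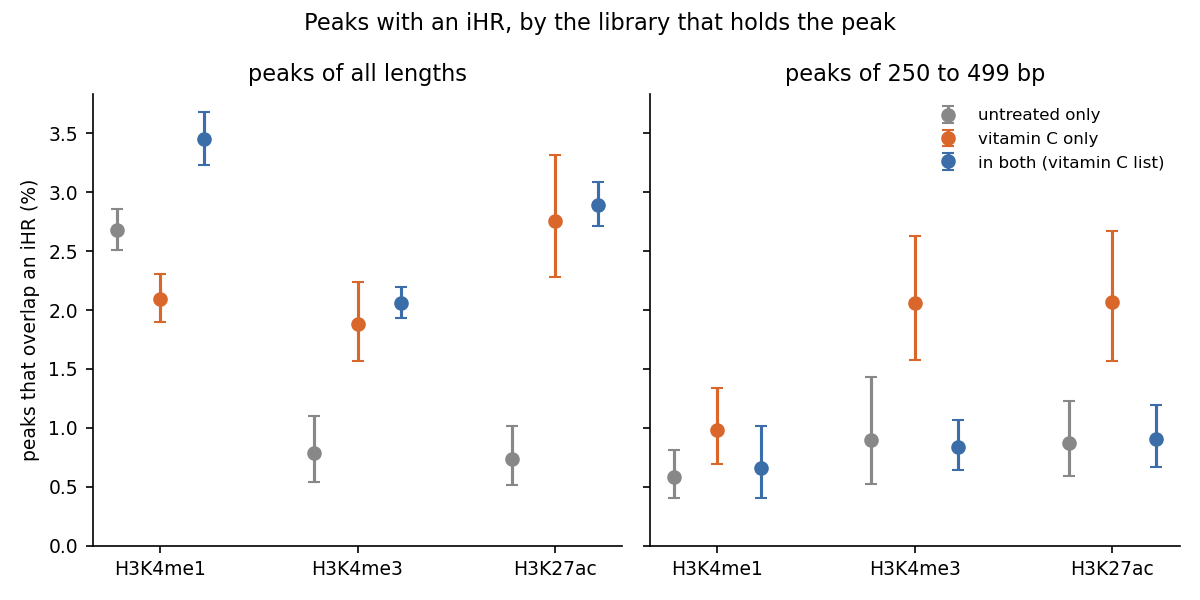
Share of peaks that overlap an iHR (y axis, %, with exact 95% intervals) for peaks of the untreated library only, of the vitamin C library only and of both, for all peak lengths and for peaks of 250 to under 500 bp. For H3K27ac and H3K4me3 the vitamin C-only peaks lay above the untreated-only ones in both panels, 2.76% against 0.736% for H3K27ac of all lengths. For H3K4me1 they lay below at all lengths, 2.09% against 2.68%, and above at 250 to under 500 bp, 0.979% against 0.582%.

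The strongest vitamin C-only H3K27ac peaks with an iHR, ranked by the authors' value and named after their values were seen, included 1 in Dnah8 (chr17:30846001-30847000), a dynein chain gene nearly silent at 0.0853 and 0.0265 RPKM. That iHR also overlapped deMRs of both methylation assays. Next came Tmem260 (chr14:48458001-48458500), whose iHR overlapped a WGBS deMR, and Zbtb38, a zinc finger protein that binds methylated DNA, with 2 iHRs under 1 peak. Creb5, a CREB-family transcription factor, had 2 iHRs under separate peaks. Levels of these genes differed by under 2-fold where expressed: Zbtb38 had 7.09 and 6.57 RPKM, Tmem260 3.74 and 3.41, and Creb5 2.96 and 4.14. Over all 94 measured genes with an iHR under H3K27ac of the vitamin C library alone, 4 (4.26%, 1.17 to 10.5) had at least 2-fold more RNA with vitamin C and 5 (5.32%, 1.75 to 12.0) at least 2-fold less, on RPKM plus 0.5. Over all 9724 measured genes the shares were 2.41% and 1.88%, which lie inside those intervals.

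iHRs coincided with regions tagged as losing methylation, though rarely. WGBS deMRs overlapped 208 iHRs, 2.66% (2.31 to 3.04) against 0.177% of windows, a ratio of 15.0. Seen from the other list, 210 of 6251 WGBS deMRs, or 3.36%, held an iHR. MeDIP deMRs overlapped 89 iHRs (1.14%, against 0.104% of windows), 26 of them with identical borders, which is 2.35% of that list. The mutant MeDIP list overlapped 59 (0.754%, against 0.119%). Regions tagged iMR, read as gained methylation, met iHRs at near the genome's rate. MeDIP iMRs overlapped 13 iHRs (0.166%, 0.0884 to 0.284, against 0.125% of windows) and WGBS iMRs 26 (0.332%, 0.217 to 0.486, against 0.243%). The share of iHRs with a WGBS deMR differed by chromatin class, from 0.612% (0.414 to 0.873) without a peak to 4.29% with H3K4me1 alone, 7.76% with H3K4me3 and 9.90% (6.78 to 13.8) with H3K27ac without H3K4me3. The same shares of windows by class are not given here. WGBS deMRs themselves lay under H3K27ac of either library in 29.5% of cases, against 3.04% of windows.

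Both deMR lists overlapped 18 iHRs. Among them were regions in Foxo3, a forkhead factor of stem cell maintenance, in Map4k4, a kinase, in Plxnd1, a semaphorin receptor, and in Fndc3b, and 1 lay 22569 bp from Cebpb, a factor of granulocyte and macrophage genes. PU.1 peaks of both libraries and a WGBS deMR met at 7 iHRs. One of these lay at chr7:35151001-35152000, centred 32.2 kb after the start of Cebpa, the factor that commits progenitors to granulocytes, and under H3K27ac of both libraries. Others lay in Tmem243, Xxylt1, Padi3, Poli and Ezr and 17174 bp from Ifitm1. The authors' PU.1 score, whose definition is not in the labels, was 27.9 untreated and 8.57 with vitamin C at the Cebpa region. It was 40.5 and 12.3 in Tmem243, 15.5 and 8.66 in Padi3, 16.4 and 7.09 in Poli, and 7.62 and 5.24 in Ezr. In Xxylt1 it was 11.7 and 11.3, and only near Ifitm1 was it higher with vitamin C, at 4.82 and 10.1. The vitamin C PU.1 list is the shorter one, with 22765 peaks against 59129. Scores at all PU.1 peaks shared by the libraries were not compared, so these 7 iHRs are not set apart from other PU.1 sites. Cebpa itself held no iHR and was at 198 and 161 RPKM.

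Expressed genes held more iHRs than silent ones. Of 20665 protein-coding genes, 2765 (13.4%) held an iHR, 761 held 2 or more and 53 held 5 or more. Genes with an iHR were longer, with a median span of 72.8 kb against 14.6 kb, so counts were set on the length of the span. iHRs per Mb of span were denser at higher untreated levels, from 2.50 in genes under 0.1 RPKM through 3.73, 5.00, 5.34 and 7.10 to 8.86 in genes of 100 RPKM or more. In genes at 1 RPKM or more there were 5.88 per Mb, and 17.4% (16.7 to 18.2) of the genes held an iHR. In genes below 1 RPKM there were 2.66 per Mb, and 10.8% (10.2 to 11.5) held one.

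The split at 1 RPKM held in each class of span, while the order over the 6 RPKM classes did not. Between genes below and at or above 1 RPKM the densities were 4.36 and 9.49 per Mb in spans under 10 kb, 3.77 and 5.85 at 10 to 30 kb, 3.24 and 5.66 at 30 to 100 kb, and 2.30 and 5.85 at 100 kb or more. Under 10 kb, for example, genes of 1 to 5 RPKM had 13.7 per Mb and those of 100 RPKM or more had 5.68. WGBS deMRs climbed alike, from 1.92 to 9.57 per Mb over the RPKM classes. MeDIP iMRs went the other way, from 2.27 to 0.941 per Mb.

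**Figure D5:**
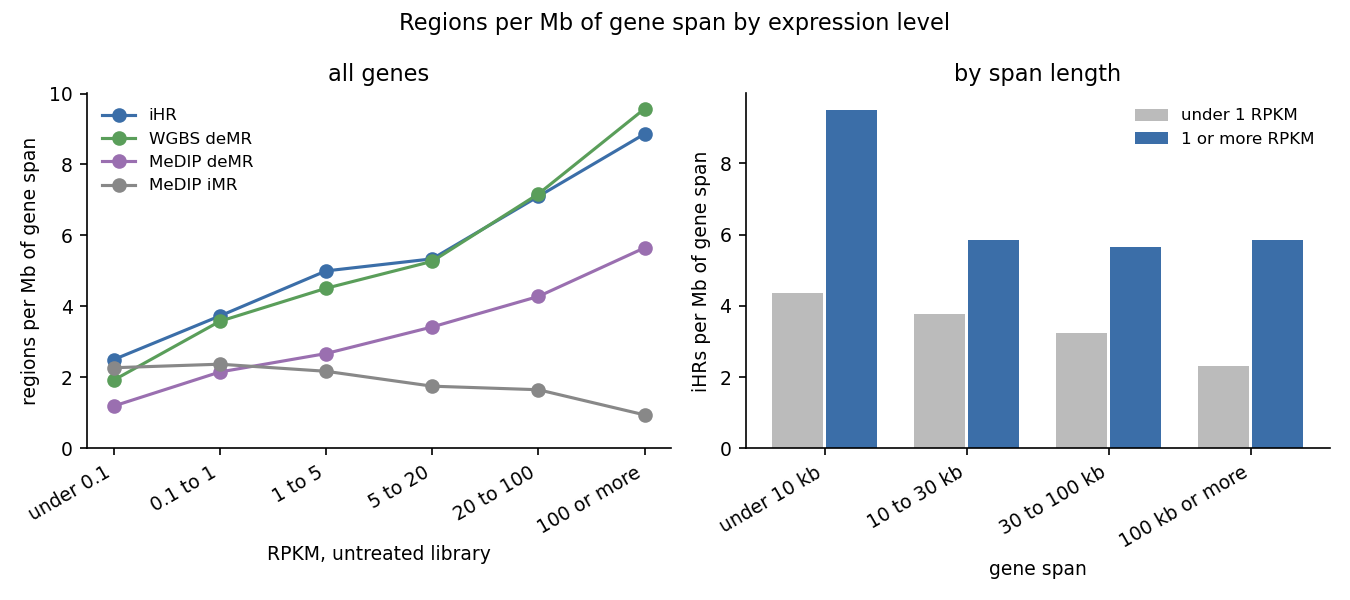
Left, regions per Mb of gene span (y axis) for 4 region lists by RPKM class of the untreated library (x axis); right, iHRs per Mb in genes below and at or above 1 RPKM, by span length. iHRs went from 2.50 to 8.86 per Mb on the left, and expressed genes were higher in each of the 4 span classes on the right.

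Gene classes were set beside all protein-coding genes, of which 13.4% held an iHR, at 4.03 per Mb. Since most members of the classes named next were expressed, genes at 1 RPKM or more untreated were set beside them too. Of these expressed genes 17.4% held an iHR, at 5.88 per Mb. The classes named next had untreated medians of 18.6 to 141 RPKM. Over all genes the density was 7.10 per Mb at 20 to 100 RPKM and 8.86 at 100 RPKM or more. How far the class densities go with expression level was not tested. Of 39 myeloid transcription factors 13 held one (33.3%, 19.1 to 50.2), at 10.4 per Mb. Runx1 led with 10, before Foxp1 with 7 and Etv6 with 4. Signalling kinases and adaptors had 14 of 34 genes (41.2%, 24.6 to 59.3) and 9.26 per Mb. Prkcb and Ptpre held 3 iHRs each and Lyn 2. Integrins and adhesion genes had 6 of 20 (30.0%, 11.9 to 54.3) and 12.2 per Mb, with 3 each in Itgb2 and Pecam1. Chromatin regulators had 14 of 35 (40.0%, 23.9 to 57.9) and 6.47 per Mb, led by Chd7 with 4. Cytokine and growth factor receptors had 4 of 30 (13.3%) and 5.16 per Mb, between the densities of all and of expressed genes. Glycolysis genes had 4 of 16 and 14.2 per Mb, which rests on 6 iHRs, among them 1 in Pkm at 951 and 1254 RPKM.

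The remaining classes ranged from none upward. Of 20 synaptic and neuronal adhesion genes 16 held an iHR, but with a median span of 1124 kb that came to 1.27 per Mb, below the level of all genes. Collagens and matrix genes had 3.09 per Mb and lymphoid genes 4.43. None of 39 Hox genes and none of 14 housekeeping genes held an iHR, in 0.300 and 0.146 Mb of span, which allows shares of up to 9.03% and 23.2% of these genes. Hoxa9, the gene used to immortalize the cells, was at 3062 and 1487 RPKM. Granule and antimicrobial proteins had 2 of 18 genes with an iHR and 21.1 per Mb, which rests on 3 iHRs. Of 20 immediate early genes 2 (10.0%) held an iHR, Dusp6 with 2 and Btg2 with 1. With a median span of 3.57 kb that came to 23.9 per Mb, the highest of the gene classes, also on 3 iHRs. Dusp6 was at 3.08 and 12.6 RPKM, and Btg2 at 1.31 and 9.85. Of the whole list 15 of 20 genes, most without an iHR, were at least 2-fold higher with vitamin C, against 2.41% of all measured genes.

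Genes of the pathway itself also held iHRs. Of 17 genes of cytosine methylation and demethylation 5 held one (29.4%, 10.3 to 56.0, against 13.4% of all protein-coding genes), at 8.27 per Mb. Tet2, an oxidase of methylcytosine, held 1 under H3K4me1 of both libraries and was at 12.8 and 6.45 RPKM. Tet3 held 2, of which 1 lay under H3K4me3, H3K27ac and PU.1 peaks, at 15.6 and 12.9 RPKM. Dnmt3a, a de novo methyltransferase, held 1. Dnmt1, Dnmt3b and Tet1 held none, and Tet1 was silent at 0.00374 and 0.00146 RPKM. Idh1 held none, and Idh2, the mitochondrial relative of IDH1, held 2 abutting iHRs, the first of which crosses the downstream end of its span, at 120 and 72.6 RPKM. Spi1 held 2 abutting iHRs under H3K4me3, at 105 and 83.0 RPKM.

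RNA levels of most genes with an iHR were close in both libraries. Among 9724 genes at 1 RPKM or more in 1 or both libraries, the share with at least 2-fold more RNA after vitamin C was 2.41%, and the share with at least 2-fold less was 1.88%, on the scale of RPKM plus 0.5. Of the 1680 with an iHR, 28 were higher (1.67%, 1.11 to 2.40) and 51 lower (3.04%, 2.27 to 3.97), against 2.56% and 1.64% of genes without one. The median log2 change was −0.04 in both sets. With the number of iHRs the share of lower genes went from 2.22% (1.46 to 3.24) for 1 iHR to 4.63% (2.85 to 7.06) for 2 or 3, and was 5 of 77 genes, 6.49% (2.14 to 14.5), for 4 or more. None of those 77 was higher, which allows up to 4.68%.

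The difference was also looked at by span length. In genes of 100 kb or more, 5.11% (3.45 to 7.26) with an iHR and 3.36% (1.93 to 5.40) without one were 2-fold or more lower, and these intervals overlap. At 30 to 100 kb the shares with and without an iHR were 1.64% and 1.65%, at 10 to 30 kb 2.42% (1.05 to 4.72) and 1.33% (0.959 to 1.79), and under 10 kb 2.68% (0.556 to 7.63) and 1.71% (1.21 to 2.34). The intervals overlap in all 4 classes. In the authors' deposited table of genes lower with vitamin C, 52 of 198 matched genes (26.3%) held an iHR, and in the authors' deposited table of higher genes 61 of 429 (14.2%) did. The listed lower genes had the longer spans, with medians of 35.2 and 15.6 kb, and per Mb of span the lists were close, at 7.02 and 6.41 iHRs.

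Named genes with an iHR differed in both directions. Among the lowest were Mpo and Kit, described above, Chd7, a chromatin remodeller, at 10.2 and 1.47 RPKM, and Sirpa, the receptor for CD47 on myeloid cells, at 46.6 and 8.74 RPKM. Chd7 held 4 iHRs, all under H3K27ac of the vitamin C library, and 3 of these had no H3K27ac peak untreated. Gm1110 and Kcng2 held 1 iHR each and went from 10.1 to 0.985 and from 12.2 to 1.35 RPKM.

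Among the highest were Acod1, which makes itaconate in activated macrophages, at 1.14 and 13.1 RPKM, and Nt5e, the ecto-nucleotidase CD73, at 4.64 and 35.1. Rbms1, an RNA-binding protein, held 3 iHRs and was at 4.63 and 29.5 RPKM. F13a1, a coagulation factor chain of monocytes, and Aqp9, a glycerol channel of neutrophils, held 1 each, at 4.64 and 20.9 and at 18.2 and 71.4 RPKM. The genes with most iHRs after Fndc3b and Runx1 differed by under 2-fold where expressed at 1 RPKM or more: Maml3, a Notch coactivator, held 10 at 24.6 and 16.7 RPKM, Ppp3ca, a calcineurin subunit, 9 at 46.7 and 38.2, and Tiam1, a Rac activator, 8 at 33.1 and 45.4. The densest gene among those with 4 or more was Cdc42ep3, an effector of the GTPase Cdc42, with 18.7 per 100 kb, at 14.4 and 15.5 RPKM.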

How the data were processed

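The authors deposited the iHR list and the 5 other region lists as positions without values. Of hMeDIP-seq the build mm10 and the tools BWA, MACS2, Picard, SAMtools 0.1.16 and CASAVA 1.8.2 are named in the submitters' processing notes without role, order or settings. The deposited histone lists give each peak a small value, read as a p-value or q-value, and the deposited PU.1 and Runx1 lists a score. Read counts and RPKM per gene were deposited by the authors. Counts were used as depth, and no count test was possible with 1 library per group.

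Autosomal intervals were put on 1-based coordinates, repeats dropped, and overlaps counted at 1 bp with Python 3.11.15, NumPy 2.4.6, pandas 2.3.3 and SciPy 1.17.1. Overlap functions were tested on simulated intervals. The background is every 500 bp window of the 19 autosomes. Gene spans, start sites and sequences came from RefSeq tables of GRCm38, with start sites for 16457 of 20665 protein-coding genes, and 19281 genes were matched to an RPKM by Ensembl ID. A fold was taken on RPKM plus 0.5.

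The members and gene lists were chosen with earlier results of these data known. Named genes were the 10 with most iHRs, the 10 densest with 4 or more, the 6 highest and 6 lowest changes with an iHR at 5 RPKM or more, up to 4 members of each gene list, and a fixed set: Spi1, Runx1, Cebpa, Cebpe, Kit, Mpo, Hoxa9, Tet2, Tet3, Dnmt3a, Idh1 and Idh2. Other genes, such as Tet1, Dnmt1, Dnmt3b and those at regions shared with deMRs or PU.1 peaks, were named after their values were seen. Named regions were the 10 longest and the 5 densest runs. Alternatives covered overlap, peak strength, distance, gene span, gap, pseudocount and filters. Some named items are not reported here.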

Additional observations from a re-analysis of the deposited data

How the results depend on the processing

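Of 44 alternatives, 15 gave a share inside the 95% interval of the reported one and 29 moved it, 8 of all being chosen after seeing the data. One comparison between lists turned: iHRs had a neighbour within 10 kb more often than WGBS iMRs (13.7%) as listed, and less often with abutting iHRs joined. Only the iHR list was joined, so that turn does not compare like with like. No paired analysis was possible because each group held 1 library. In gene spans lay 59.0% of iHRs with all genes of the reference and 57.6% with 5 kb added on both sides. Within 5 kb of a start lay 10.9%. A neighbour stood within 5 kb for 14.1% and within 50 kb for 41.4%, and within 10 kb for 12.9% with abutting regions joined. With an overlap of 50% of either interval the shares under a peak were 30.9% for H3K4me1, 9.92% for H3K4me3, 11.3% for H3K27ac and 3.82% for PU.1, and 2.21% under a WGBS deMR. With the stronger 50% of each list they were 15.2%, 8.52%, 10.0% and 3.17%, with 0.204% for Runx1 and 75.2% under no peak. Within 1 kb they were 39.1%, 20.9%, 20.5% and 15.2%, with 2.12% for Runx1, 55% near no peak and 5.10% near a WGBS deMR. The ratio to windows stayed above 1 throughout, between 1.59 (Runx1, stronger peaks) and 4.63 (H3K27ac, all peaks) over these strengths and distances. With 5 kb added, 21.9% of genes at 1 RPKM or more held an iHR. Higher genes made up 1.07% without the filter on low values, and lower genes 1.95% without it and 4.11% with a pseudocount of 0.1 RPKM. Of vitamin C-only H3K27ac peaks of 250 to under 500 bp, 2.07% held an iHR. With regions off the grids left out, 51.5% lay in gene spans and 61.6% under no peak. The depth of the hMeDIP library is unknown, so a gene or peak without an iHR was below the authors' threshold and may still carry the mark.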

Other observations

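The longest iHRs, 4 of 2000 bp, lay in Uck2, a uridine kinase gene at 144 and 132 RPKM, in Spata13, a Rac exchange factor gene at 9.57 and 8.98 RPKM, in Mcfd2, a cargo receptor gene at 34.5 and 48.2 RPKM, and at chr6:68213001-68215000, which is 677179 bp from the nearest protein-coding gene. The one in Uck2 was under H3K4me1, H3K4me3 and H3K27ac of both libraries, the one in Spata13 under H3K4me1 of both and a WGBS deMR, and those in Mcfd2 and on chromosome 6 under no listed peak. Among iHRs of 1500 bp were 1 in Bcl2, the apoptosis inhibitor, at 31.6 and 42.5 RPKM, and 1 in Rffl, at 19.9 and 16.4 RPKM.

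Peaks that were strong did not always hold more iHRs. Among untreated H3K27ac peaks 4.36% (3.95 to 4.80) of the strongest 25% by the authors' value and 1.42% (1.19 to 1.69) of the weakest held an iHR, but the strongest were longer, with medians of 2405 and 378 bp. Per Mb of peak the order was 15.1 and 31.8. Among untreated H3K4me1 peaks 2.14% of the strongest and 3.93% of the weakest 25% held one, with medians of 1164 and 1836 bp. PU.1 peaks of the untreated library held an iHR about as often per Mb of peak when lost with vitamin C (21.6) as when kept (21.0).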
